A study of Mus musculus with 34 samples.

Results

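The proteasome genes described here are the transcripts of the core particle, the regulatory particle and the activators of the proteasome in mouse liver and hepatocellular carcinoma (HCC). They were taken as every probe whose platform symbol is Psma, Psmb, Psmc, Psmd, Psme or Psmf followed by a number, leaving out the induced subunits Psmb8 and Psmb9. The rule found 41 genes, on 73 of the array's 45281 probes. All 73 probes passed the filter on dim signals, as did 45219 of all probes. Where a gene had several probes, the brightest on average stands for it. The inhibitor Psmf1 was not analysed here.

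The proteasome is the ATP-dependent protease that degrades ubiquitin-tagged proteins in the cytosol and nucleus. Its core particle is a barrel of alpha rings, which gate the entry of substrate, around beta rings, which carry the catalytic sites. The regulatory particle caps the barrel, with a base of ATPases that unfold the substrate and a lid that removes ubiquitin. Interferon signaling replaces the constitutive catalytic subunits Psmb5, Psmb6 and Psmb7 with the induced Psmb8, Psmb9 and Psmb10, which form the immunoproteasome of antigen processing.

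Gene expression was measured on Illumina BeadChips in bulk liver or tumor tissue of male C3H/HeNCrl mice, 1 array per mouse. High-LET radiation means iron or silicon ions, which deposit dense energy along a track, and low-LET radiation means γ-rays. The tumors were 7 high-LET HCC after 0.1 to 1 Gy, 3 low-LET HCC after 2 to 3 Gy and 4 spontaneous HCC of mice given 0 Gy. The non-HCC livers came from 10 mice given 1 Gy of high-LET radiation, 4 mice given 3 to 7 Gy of low-LET radiation and 6 sham-irradiated mice. The study describes its high-LET non-HCC livers as irradiated with iron ions only. High-LET HCC and high-LET non-HCC livers thus also differ in ion and dose, whose part was not tested. All mice were of this strain, which develops liver tumors without irradiation, and were irradiated or sham-irradiated as young adults. Ages at harvest are not given per mouse in the sources used here, although the study describes the irradiated non-HCC livers as age-matched. The methods give a lower range of γ-ray doses than the labels, whose doses are used, and which ion the tumors at 0.2 Gy had received was not clear. In bulk tissue fewer cells of a type and less RNA per cell cannot be told apart.

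Deposited intensities had medians of 93.1 to 127.2 per array, and 21399 to 27075 probes per array lay above the array's background limit. Signals are log2 values after background correction and quantile normalization, and the number of mice limits the precision. By its brightest probe 33 of the 41 proteasome genes lay above background on all 34 arrays. The other 8 did so on some arrays only, namely Psma1 on 2, Psma3 on 4, Psma6 on 1, Psma8 on 22, Psmb11 on 32, Psmc6 on 11, Psmd3 on 2 and Psmd6 on 25. Near that limit a fold change is compressed toward 0. A gene counted as called if limma gave a fold change above 1.3 with an adjusted p (Benjamini-Hochberg) under 0.1. One tumor stood apart: in high-LET HCC replicate 4, given 0.4 Gy, the mean over the 33 genes lay 0.37 below the sham mean on the log2 scale, against −0.14 in the next lowest high-LET HCC. Without that tumor 4 instead of 7 proteasome genes were called against sham livers and 7 instead of 11 against high-LET non-HCC livers.

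Promoters are shown for the genes with the largest lower (Psmd11, Psme4) and higher (Psmd8) signals in tumors, and for Psmc1, also lower in tumors. The sequences are those of RefSeq on GRCm38.p6, each from 250 bases before to 50 after an annotated start and written in the direction of the gene. Capitals mark the letters of 2 motifs searched on both strands, CCAAT, bound by NF-Y, and TGACNNNGC, the core of the antioxidant response element.
Psmd11, chr11:80428365-80428664 (+): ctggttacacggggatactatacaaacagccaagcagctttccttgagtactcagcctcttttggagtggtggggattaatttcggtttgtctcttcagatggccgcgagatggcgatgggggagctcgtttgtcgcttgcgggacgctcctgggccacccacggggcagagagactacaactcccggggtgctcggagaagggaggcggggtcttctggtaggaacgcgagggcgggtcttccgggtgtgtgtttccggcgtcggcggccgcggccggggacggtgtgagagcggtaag
Psme4, chr11:30771525-30771824 (+): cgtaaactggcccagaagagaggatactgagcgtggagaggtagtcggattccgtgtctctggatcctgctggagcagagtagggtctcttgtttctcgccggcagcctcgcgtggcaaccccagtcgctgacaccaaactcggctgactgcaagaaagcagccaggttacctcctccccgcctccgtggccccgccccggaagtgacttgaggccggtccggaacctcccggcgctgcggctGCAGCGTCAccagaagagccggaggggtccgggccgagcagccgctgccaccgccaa
Psmd8, chr7:29180624-29180923 (−): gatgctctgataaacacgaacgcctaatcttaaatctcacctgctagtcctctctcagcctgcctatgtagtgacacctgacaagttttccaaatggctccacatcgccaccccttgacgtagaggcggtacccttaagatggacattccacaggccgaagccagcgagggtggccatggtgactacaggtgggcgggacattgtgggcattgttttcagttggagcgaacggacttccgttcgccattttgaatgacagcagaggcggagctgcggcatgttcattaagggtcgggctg
Psmc1, chr12:100109952-100110251 (+): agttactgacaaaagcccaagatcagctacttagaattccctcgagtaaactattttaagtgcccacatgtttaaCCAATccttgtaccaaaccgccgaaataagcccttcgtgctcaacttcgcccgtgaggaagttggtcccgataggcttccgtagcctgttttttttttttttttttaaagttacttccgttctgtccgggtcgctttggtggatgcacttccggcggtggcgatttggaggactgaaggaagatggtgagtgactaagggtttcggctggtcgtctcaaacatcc
The Psme4 promoter held the antioxidant motif on the opposite strand, with its leftmost base 7 before the start, and the Psmc1 promoter held CCAAT beginning 175 bases before the start. Neither motif's letters were in the Psmd11 and Psmd8 windows. Among 37 promoters listed for 34 of the proteasome genes, 13 (35.1%) held CCAAT and 6 (16.2%) held TGACNNNGC. Of all 32851 promoters of this length in the table, 37.4% and 12.4% did.

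In all HCC against all non-HCC livers 2 of the 41 genes were higher, Psmd8 and Psmb10, where 4.75% of all probes tested were. In the same comparison 4 were lower, Psmd11, Psme4, Psmc1 and Psma4, where 4.68% of all probes were. The median log2 fold change was −0.09 over the 41 genes and −0.00 over all probes, and 31 of the 41 fold changes were negative. Among the 24051 probes above background on at least 17 arrays, 8.47% were called higher and 8.79% lower. The shares of the 41 genes, 4.88% higher and 9.76% lower, were thus below and close to those of expressed probes. At an unadjusted p under 0.05 in limma 21 of the 41 genes (51.2%) passed, against 27.6% of all probes, which include those at background. The share of expressed probes at this threshold is not given here. No proteasome gene had all 14 HCC above or all 14 below the 20 non-HCC livers. Of the 45219 probes tested, 73 lay wholly above and 121 wholly below in this way.

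Against sham livers, high-LET HCC had 2 proteasome genes higher (3.2% of all probes) and 5 lower (3.56% of all probes). Low-LET HCC had 1 higher (3.51% of all probes) and 4 lower (4.02%). Spontaneous HCC had 2 higher (4.67% of all probes) and 5 lower (4.73%). These 3 comparisons share the sham livers, and the medians over the 41 genes were −0.09, −0.06 and −0.07. For expressed probes, the 24051 above background on at least 17 arrays, the shares higher were 5.82%, 6.06% and 8.29%. The shares lower were 6.69%, 7.56% and 8.89%. Compared with irradiated livers without HCC, high-LET HCC had 3 higher (4.02% of all probes) and 8 lower (4.06%), and low-LET HCC had 1 higher (3.22%) and 2 lower (3.36%). Of expressed probes 7.33% and 5.55% were called higher and 7.63% and 6.31% lower in these comparisons. The medians here were −0.13 and −0.07. Most of these calls were lost when arrays were only scaled to a common median, where the counts higher and lower were 1 and 0, 0 and 0, 0 and 1, 3 and 0, and 0 and 0 in these 5 comparisons, while in all HCC they were 2 and 5. The count of 3 in low-LET HCC rested on single tumors, since it was 0 without low-LET HCC replicate 3 and 6 without replicate 2.

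**Figure D1:**
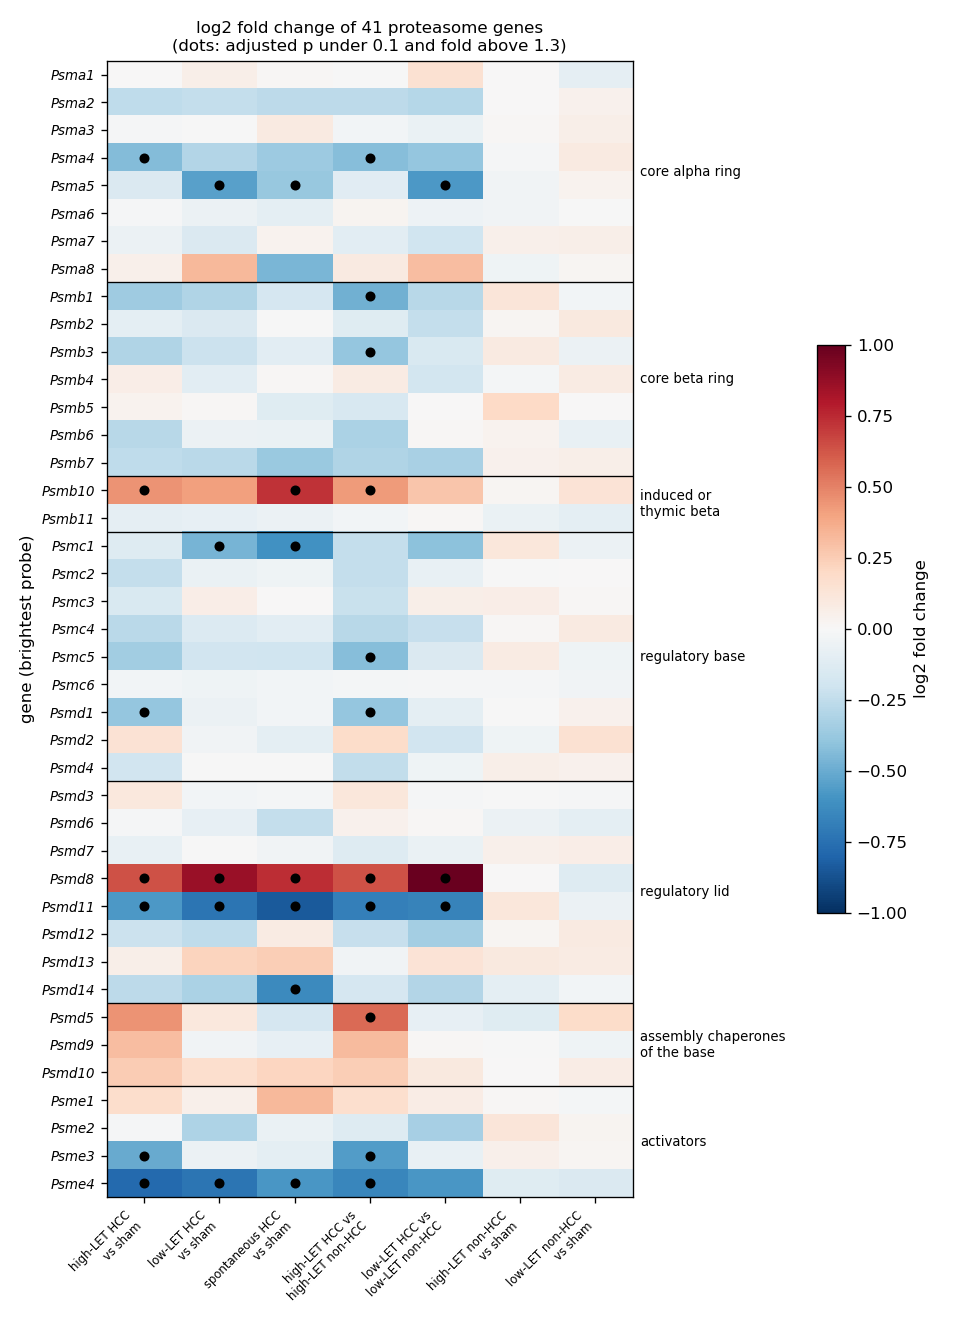
Log2 fold change of each of the 41 proteasome genes (rows, grouped by particle) in 5 comparisons of HCC and 2 of irradiated non-HCC livers (columns), red for higher and blue for lower in the first-named group, with dots on genes called in limma. Psmd11 carries a dot in all 5 tumor columns and Psmd8 does too, in opposite colors, while both non-HCC columns hold no dot.

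In the alpha rings, 1 of 8 genes was called in all HCC against all non-HCC livers. Psma4, a structural subunit of the outer ring, was lower by 0.39 ± 0.07 (SE) on the log2 scale, a fold of 1.31 (adjusted p = 0.000126). Its log2 signal was 11.72, 11.81 and 11.69 in the low-LET HCC and 11.52, 11.78, 11.62 and 11.76 in the spontaneous HCC. The high-LET HCC ranged from 11.14 to 12.12 with a median of 11.54. The sham livers ranged from 11.94 to 12.13 with a median of 12.04, the high-LET non-HCC livers from 11.92 to 12.14 with a median of 12.04, and the low-LET non-HCC livers had 12.33, 12.15, 11.99 and 12.03. In all, 12 of 14 HCC lay below the lowest non-HCC liver, and the other two were the high-LET HCC replicates 5 and 6 at 11.94 and 12.12. The call was lost without high-LET HCC replicate 3 or 4, spontaneous HCC replicate 1 or low-LET non-HCC replicate 1, and with BeadChip as a fixed block.

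Psma2, another alpha subunit, had a smaller difference. It was lower by 0.27 ± 0.05 (SE) with an adjusted p of 5.14e-05, a fold of 1.203 that stayed under the fold threshold. The signal was 12.09 to 12.63 with a median of 12.20 in high-LET HCC, 12.37, 12.41 and 12.14 in low-LET HCC, while the spontaneous HCC had 12.12, 12.30, 12.32 and 12.42. In non-HCC livers it was 12.34 to 12.68 with a median of 12.55 after high-LET radiation, 12.59, 12.66, 12.51 and 12.61 after low-LET radiation, and 12.40 to 12.66 with a median of 12.56 after sham irradiation. Thus 9 of 14 HCC lay below every non-HCC liver.

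Psma5, which helps to seed the assembly of the alpha ring, was called lower in low-LET HCC, by 0.54 ± 0.13 (adjusted p = 0.00823), and in spontaneous HCC, by 0.38 ± 0.12 (adjusted p = 0.0391), both against sham livers. For high-LET HCC the log2 fold change was −0.15 ± 0.10 (adjusted p = 0.498). High-LET and low-LET HCC themselves differed by 0.39 ± 0.13 with an adjusted p of 0.198, which did not pass the test. The low-LET HCC had 11.14, 11.86 and 12.08, all below the 6 sham livers at 12.16 to 12.33, and the call was lost without replicate 3 at 11.14. In spontaneous HCC the call was also lost without spontaneous HCC replicate 2 or sham replicate 1, 5 or 6. Psma3, with the largest p of the ring in all HCC, had a fold change of 0.00 ± 0.04. Psma7 was not called in any comparison, and Psma1, Psma6 and the testis subunit Psma8, near the background limit in most arrays or in part of them, were not either.

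In the beta rings, 0 of 7 constitutive genes were called by their brightest probe in all HCC against all non-HCC livers, and all 7 fold changes were negative, from −0.33 to −0.03. Psmb7, the trypsin-like catalytic subunit, was lowest at −0.33 ± 0.08 (adjusted p = 0.00192). Its 4 probes gave −0.25 to −0.59, and 2 of them were called. In high-LET HCC against sham livers these 2 gave −0.03 and 0.06, while the brightest gave −0.25 and the dimmest −0.27. The dimmest was called in spontaneous HCC against sham livers, lower by 0.44 ± 0.14 (adjusted p = 0.0396). The other catalytic subunits moved less, with −0.09 ± 0.07 (adjusted p = 0.435) for the chymotrypsin-like Psmb5 and −0.12 ± 0.06 (adjusted p = 0.237) for the caspase-like Psmb6. The only Psmb5 probe was dim, at a mean log2 signal of 6.99, against 11.11 to 13.02 for the other constitutive beta genes. Its fold change may therefore be compressed, also in the Psmb8 minus Psmb5 difference below. Psmb4, a structural subunit, had the largest p of the ring at −0.03 ± 0.06.

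By brightest probes, high-LET HCC against high-LET non-HCC livers gave the only calls among the 7 constitutive beta genes. The structural subunits Psmb1, lower by 0.48 ± 0.16 (adjusted p = 0.0413), and Psmb3, lower by 0.39 ± 0.07 (adjusted p = 0.000436), passed in that comparison. Psmb3 ranged from 11.24 to 11.79 in the 7 tumors and from 11.75 to 12.04 in the 10 livers, with 1 tumor inside the range of the livers. Psmb1 ranged from 9.72 to 11.48 in the tumors against 11.19 to 11.43 in the livers. Both calls were lost without high-LET HCC replicate 3 or 4 and with BeadChip as a fixed block, and that of Psmb3 also without high-LET non-HCC replicate 2.

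Psmb10, the induced subunit that takes the place of Psmb7, was higher in tumors. In all HCC it rose by 0.47 ± 0.08 (SE) on the log2 scale, a fold of 1.39 (adjusted p = 5.64e-05), and its other probe gave 0.40. The tumor signals were 10.07 to 11.09 with a median of 10.86 in high-LET HCC, 10.56, 10.83 and 10.74 in low-LET HCC, and 10.74, 11.32, 10.99 and 11.04 in spontaneous HCC. The liver signals were 10.10 to 10.66 with a median of 10.31 after high-LET radiation, 10.59, 10.56, 10.35 and 10.25 after low-LET radiation and 10.07 to 10.77 with a median of 10.24 after sham irradiation. Of the 14 HCC, 8 lay above every non-HCC liver and 13 above the sham mean. The exception was high-LET HCC replicate 4 at 10.07, and the highest liver was sham replicate 3 at 10.77. Against sham livers the rise was 0.45 ± 0.12 in high-LET HCC (adjusted p = 0.0222) and 0.72 ± 0.14 in spontaneous HCC (adjusted p = 0.000825), while in low-LET HCC the value of 0.41 ± 0.16 did not pass (adjusted p = 0.129). Psmb11, the thymic subunit, had −0.02 ± 0.02 in all HCC and was not called in any comparison.

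The induced subunits were then set against the constitutive ones within each array, as the log2 difference of each pair. This shows unequal change and not a ratio of levels. Each gene was taken by its brightest probe, and other probes of Psmb7 were not used. The Psmb10 minus Psmb7 difference was greater in HCC than in non-HCC livers by 0.80, with SDs of 0.34 (n = 14) and 0.24 (n = 20) (permutation p = 1e-05, the smallest that 100000 resamples can give, adjusted p = 3e-05 over 3 pairs, two-sided). All 14 HCC lay above the mean of the non-HCC livers and 11 above the highest of them. For Psmb8 minus Psmb5 the gap was 0.92 (permutation p = 0.00021, adjusted p = 0.000315) and 13 of 14 HCC lay above the non-HCC mean. For Psmb9 minus Psmb6 it was 0.22 (permutation p = 0.00225, adjusted p = 0.00225), which did not pass with the authors' normalized values. Psmb9 itself was dim, above background on 32 arrays, and its own log2 fold change in high-LET HCC against sham livers was 0.10 (adjusted p = 0.641).

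By kind of tumor, 9 exact permutation tests against sham livers were run, two-sided. Psmb10 minus Psmb7 was greater by 0.70 in high-LET HCC (exact permutation p = 0.00117, adjusted p = 0.00787), by 1.09 in spontaneous HCC (exact permutation p = 0.00476, adjusted p = 0.0143) and by 0.68 in low-LET HCC (exact permutation p = 0.0714, adjusted p = 0.107). With 3 tumors against 6 livers the smallest p the test allows is 0.0119. Psmb8 minus Psmb5 was greater by 1.17 in high-LET HCC (adjusted p = 0.00787, exact permutation) and by 1.02 in spontaneous HCC (adjusted p = 0.0343, exact permutation). In low-LET HCC it differed by 0.38 (adjusted p = 0.548, exact permutation), where Psmb8 itself ranged from 7.70 to 10.76 in log2 signal over the 3 tumors. Psmb9 minus Psmb6 was greater by 0.37 in high-LET HCC (adjusted p = 0.0144, exact permutation), and the gaps of 0.11 in low-LET HCC (adjusted p = 0.138, exact permutation) and 0.12 in spontaneous HCC (adjusted p = 0.182, exact permutation) did not pass. On the 6 BeadChips that held both tissues, HCC exceeded non-HCC livers by 0.18 to 1.37 for Psmb10 minus Psmb7 and by 0.39 to 1.72 for Psmb8 minus Psmb5. For Psmb9 minus Psmb6 the gap ran from −0.08 to 0.42.

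**Figure D2:**
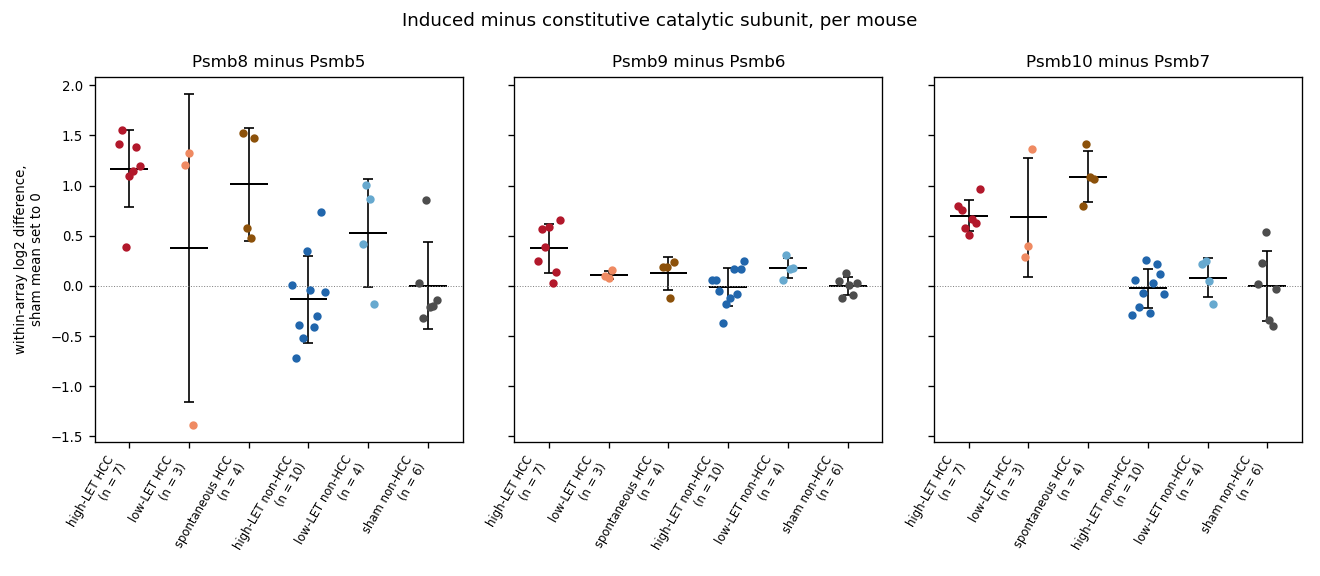
Within-array log2 difference of each induced and constitutive catalytic subunit per mouse (points), with the mean of the 6 sham livers set to 0 and group means with SD as bars. HCC lie above the non-HCC livers for Psmb10 minus Psmb7 on average by 0.80, and a low-LET HCC is the lowest point for Psmb8 minus Psmb5.

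Of 8 leukocyte markers matched, 2 were called higher in all HCC, Cd74 by 1.39 and Lyz2 by 1.26, and 1 lower, the Kupffer cell marker Clec4f, by 0.95. The 8 together had a summed linear signal of 3110 to 7545 in spontaneous HCC, 2213 to 10404 in high-LET HCC and 3305 to 4616 in low-LET HCC, against 1898 to 2681 in sham livers. The high-LET non-HCC livers had 1714 to 4524 and the low-LET non-HCC livers 2191 to 4135, so these sums overlap those of the HCC. Ptprc, the leukocyte common antigen, lay near the background limit in every group and had a log2 fold change of −0.00, and Cd8a had 0.01. The part of these cells in the Psmb10 and Psmb8 values was not tested. The 6 hepatocyte markers summed to 56691 to 82518 in HCC and 60024 to 75354 in non-HCC livers.

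In the base of the regulatory particle, 1 of 9 genes was called in all HCC against all non-HCC livers and all 9 fold changes were negative. Psmc1, an ATPase of the base also known as Rpt2, was lower by 0.42 ± 0.08 (fold 1.34, adjusted p = 0.000184). It was 9.28, 9.03, 8.96 and 9.32 in spontaneous HCC, 9.35, 9.75 and 8.76 in low-LET HCC and 9.19 to 9.97 with a median of 9.65 in high-LET HCC. The sham livers had 9.45 to 9.98 with a median of 9.78, the high-LET non-HCC livers 9.72 to 10.10 with a median of 9.87, and the low-LET non-HCC livers 9.61, 9.73, 9.56 and 9.89. All 4 spontaneous HCC lay below every non-HCC liver, whereas high-LET HCC overlapped them. The fold change against sham livers was −0.60 ± 0.14 in spontaneous HCC (adjusted p = 0.00333), −0.47 ± 0.15 in low-LET HCC (adjusted p = 0.0576) and −0.13 ± 0.12 in high-LET HCC (adjusted p = 0.656). In low-LET HCC the call was lost without low-LET HCC replicate 3, sham replicate 1 or 4, and with BeadChip as a fixed block, and in all HCC without low-LET HCC replicate 3, without background correction or with arrays scaled to a common median.

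Psmd1, the large scaffold of the base known as Rpn2, was called lower by its brightest probe in high-LET HCC, by 0.39 ± 0.10 against sham livers (adjusted p = 0.0135) and by 0.38 ± 0.09 against high-LET non-HCC livers (adjusted p = 0.00348). High-LET HCC ranged from 11.54 to 12.36 and the sham livers from 12.21 to 12.42. Against spontaneous HCC the difference of −0.35 ± 0.11 had an adjusted p of 0.101 and was not called. The call against sham livers was lost without high-LET HCC replicate 1, 2 or 4 or sham replicate 3 or 5, and that against high-LET non-HCC livers without the same tumors or high-LET non-HCC replicate 1, 4 or 5. Another, dimmer probe of Psmd1 was lower by 0.49 ± 0.08 in all HCC (adjusted p = 2.7e-05). Against sham livers this probe was lower by 0.73 ± 0.12 in high-LET HCC (adjusted p = 0.00026) and by 0.45 ± 0.15 in low-LET HCC (adjusted p = 0.0757). In spontaneous HCC its value of −0.38 ± 0.14 (adjusted p = 0.0939) stayed just under the fold threshold. The ATPase Psmc5 was lower by 0.43 ± 0.09 in high-LET HCC against high-LET non-HCC livers (adjusted p = 0.00207), with 9.39 to 10.14 in tumors and 9.90 to 10.22 in livers. Its other probe, nearly as bright, was called lower in low-LET HCC. The decrease there was 0.45 ± 0.14 against sham livers (adjusted p = 0.0501) and 0.52 ± 0.15 against low-LET non-HCC livers (adjusted p = 0.04). In all HCC that probe had −0.34 ± 0.07 (adjusted p = 0.00104), under the fold threshold. Psmc6, the ATPase with the largest p of the base, had −0.02 ± 0.03 and lay above background on 11 arrays.

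Psmd2, the scaffold Rpn1, was dim and was not called against livers. Its signal was 6.50 to 6.96 with a median of 6.67 in high-LET HCC, 6.60, 6.58 and 6.31 in low-LET HCC, while the spontaneous HCC had 6.46, 6.41, 6.48 and 6.38. In livers it was 6.24 to 6.83 with a median of 6.46 after high-LET radiation, 6.67, 6.57, 6.92 and 6.57 after low-LET radiation and 6.41 to 6.63 with a median of 6.54 after sham irradiation. In all HCC its log2 fold change was −0.03 ± 0.05.

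In the lid, 2 of 8 genes were called in all HCC, in opposite directions, and these were the largest changes among the 41 genes. Psmd11, the lid subunit Rpn6 that clamps the regulatory to the core particle, was lower by 0.73 ± 0.08 (SE), a fold of 1.66 (adjusted p = 9.16e-08). The spontaneous HCC had log2 signals of 7.43, 7.68, 7.72 and 7.29, the low-LET HCC 7.49, 8.02 and 7.42, and the high-LET HCC 7.09 to 8.09 with a median of 7.90. The sham livers had 8.01 to 8.65 with a median of 8.39, the high-LET non-HCC livers 8.28 to 8.66 with a median of 8.46, and the low-LET non-HCC livers 8.06, 8.25, 8.36 and 8.57. All 14 HCC lay below the sham mean and 12 of them below every non-HCC liver. Against sham livers the log2 fold change was −0.57 ± 0.13 in high-LET HCC (adjusted p = 0.00416), −0.73 ± 0.16 in low-LET HCC (adjusted p = 0.00357) and −0.84 ± 0.15 in spontaneous HCC (adjusted p = 0.000187). Within the 6 BeadChips with both tissues the difference ran from −1.15 to −0.49. The 2 other probes of Psmd11 were dimmer. The smallest of the 3 changes, −0.05, came from a probe above background on 0 arrays. The remaining probe, above background on 33 arrays, was lower by 0.28 ± 0.07 (adjusted p = 0.00172), under the fold threshold. In spontaneous HCC against sham livers that probe was called, lower by 0.47 ± 0.12 (adjusted p = 0.0059). With the mean of the 3 probes the call in all HCC was lost. The call against low-LET non-HCC livers was lost without low-LET HCC replicate 3.

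Psmd8, the lid subunit Rpn12 that is added last to the lid, rose by 0.79 ± 0.14 (SE), a fold of 1.73 (adjusted p = 6.34e-05). The low-LET HCC had 10.89, 11.06 and 11.24 and the spontaneous HCC 10.93, 10.44, 11.16 and 11.24. The high-LET HCC fell on either side of a gap: 11.47, 10.88, 11.58 and 11.69 in replicates 1 to 4, given 0.1 to 0.4 Gy, and 10.08, 10.03 and 10.15 in replicates 5 to 7, given 0.2 Gy or 1 Gy. The livers had 10.06 to 10.40 with a median of 10.19 after sham irradiation, 9.97 to 10.44 with a median of 10.21 after high-LET radiation, and 9.94, 10.05, 9.91 and 10.40 after low-LET radiation. Thus 11 of 14 HCC lay above every non-HCC liver and the other 3, all high-LET, lay within the range of the livers. The rise against sham livers was 0.63 ± 0.21 in high-LET HCC (adjusted p = 0.0574), 0.86 ± 0.26 in low-LET HCC (adjusted p = 0.0418) and 0.74 ± 0.24 in spontaneous HCC (adjusted p = 0.0468).

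These calls for single kinds of tumor were less firm than the call over all HCC, which was kept without any of the 34 arrays. In high-LET HCC the call was lost without high-LET HCC replicate 1, 3 or 4 or sham replicate 2 or 3, in low-LET HCC without replicate 2 or 3, and in spontaneous HCC without replicate 3 or 4. All 3 calls against sham livers were lost with BeadChip as a fixed block, although within the 6 BeadChips with both tissues HCC exceeded non-HCC livers by 0.45 to 1.37. A second probe of Psmd8, of mean log2 signal 6.36 against 10.48 for the first, gave a change of 0.09 only.

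The same 3 high-LET HCC lay at or near liver levels for Psma4, with 11.94, 12.12 and 11.90, and for Psme4, with 10.82, 10.91 and 11.12. For Psmd11 they had 7.99, 7.88 and 8.09, which kept them below the sham mean of 8.37. They were pointed out after their values were seen and are not a group of the study. Psmd14, the deubiquitinase of the lid, was called lower in spontaneous HCC by 0.63 ± 0.19 (adjusted p = 0.0312), with all 4 tumors at 7.05 to 7.30 and the sham livers at 7.49 to 8.10. Psmd3, with the largest p of the lid, had 0.03 ± 0.03, and Psmd6, Psmd7, Psmd12 and Psmd13 were not called in any comparison.

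The assembly chaperones of the base, Psmd5, Psmd9 and Psmd10, bind the ATPases during assembly and are absent from the finished particle. None was called in all HCC, where Psmd10 had the smallest p at 0.19 ± 0.09 (adjusted p = 0.17) and Psmd5 the largest at 0.11 ± 0.12 (adjusted p = 0.658). Psmd5 rose in high-LET HCC against high-LET non-HCC livers by 0.57 ± 0.16 (adjusted p = 0.015). Against sham livers the same tumors had 0.45 ± 0.18 (adjusted p = 0.137), which was not called. It was 7.17 to 7.52 with a median of 7.24 in high-LET HCC, 7.51, 7.17 and 6.17 in low-LET HCC, while the spontaneous HCC had 7.22, 6.09, 6.43 and 7.00. In livers it was 6.52 to 7.27 with a median of 6.66 after high-LET radiation, 6.64, 7.22, 7.40 and 6.88 after low-LET radiation and 6.40 to 7.17 with a median of 6.86 after sham irradiation. The 7 high-LET HCC lay close together, whereas the low-LET and spontaneous HCC ran from 6.09 to 7.51. A second Psmd5 probe had −0.00 ± 0.05 in high-LET HCC against high-LET non-HCC livers (adjusted p = 0.984) and −0.02 in all HCC.

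Among the activators, Psme4 (PA200, a cap that opens the core without ATP) was lower and Psme3 (PA28γ, the nuclear activator) was lower in high-LET HCC. Psme4 was lower in all HCC by 0.61 ± 0.11 (SE), a fold of 1.52 (adjusted p = 0.000101). Its signal was 9.60 to 11.12 with a median of 10.19 in high-LET HCC, 10.59, 10.49 and 10.05 in low-LET HCC, while the spontaneous HCC had 10.56, 10.38, 10.80 and 10.36. The sham livers lay tightly at 10.996 to 11.16 with a median of 11.12, the high-LET non-HCC livers at 10.80 to 11.10 with a median of 11.03 and the low-LET non-HCC livers at 10.99, 10.95, 10.97 and 10.94. All of the low-LET HCC and spontaneous HCC lay below the sham livers, and 11 of the 14 HCC lay below every non-HCC liver. Against sham livers the fold change was −0.77 ± 0.17 in high-LET HCC (adjusted p = 0.00307), −0.73 ± 0.21 in low-LET HCC (adjusted p = 0.0281) and −0.58 ± 0.19 in spontaneous HCC (adjusted p = 0.0498). The last 2 calls were lost with BeadChip as a fixed block, and also without low-LET HCC replicate 3 and without spontaneous HCC replicate 2 or 4, respectively. A dimmer second probe of Psme4 gave −0.05 in all HCC, and with the mean of both probes the call was lost.

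Psme3 was 8.58 to 9.57 with a median of 9.21 in high-LET HCC, against 9.39, 9.59 and 9.72 in low-LET HCC, while the spontaneous HCC had 9.64, 9.41, 9.68 and 9.39. The livers had 9.37 to 9.76 with a median of 9.65 after sham irradiation, 9.24 to 9.81 with a median of 9.73 after high-LET radiation and 9.72, 9.51, 9.59 and 9.74 after low-LET radiation. High-LET HCC were lower than sham livers by 0.51 ± 0.11 (adjusted p = 0.00233) and lower than high-LET non-HCC livers by 0.56 ± 0.09 (adjusted p = 0.000129). In low-LET and spontaneous HCC the values against sham livers were −0.06 ± 0.13 and −0.10 ± 0.12. High-LET against low-LET HCC gave −0.45 ± 0.13 (adjusted p = 0.132), which was not called. Only high-LET HCC replicate 1 at 9.57 overlapped the sham livers.

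Psme1 and Psme2 form the interferon-induced activator PA28, and neither was called. Psme1 was 11.41 to 12.13 with a median of 11.98 in high-LET HCC, 11.62, 11.88 and 11.76 in low-LET HCC, while the spontaneous HCC had 11.87, 12.23, 11.94 and 12.04. Its livers had 11.57 to 11.80 with a median of 11.71 after sham irradiation, 11.43 to 11.81 with a median of 11.72 after high-LET radiation and 11.72, 11.64, 11.74 and 11.61 after low-LET radiation. In 10 of 14 HCC it lay above every non-HCC liver, yet the log2 fold change of 0.19 ± 0.06 (adjusted p = 0.0176) stayed under the fold threshold. Psme2 was 7.62 to 8.92 with a median of 8.32 in high-LET HCC, while the low-LET HCC had 8.55, 8.61 and 6.98 and the spontaneous HCC 8.15, 8.26, 8.25 and 8.47. The sham livers had 8.003 to 8.63 with a median of 8.34. The high-LET non-HCC livers had 7.92 to 8.64 with a median of 8.56 and the low-LET non-HCC livers 8.28, 8.28, 8.46 and 8.51. Its fold change in all HCC was −0.18 ± 0.13 (adjusted p = 0.424), with the largest p of the activators.

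**Figure D3:**
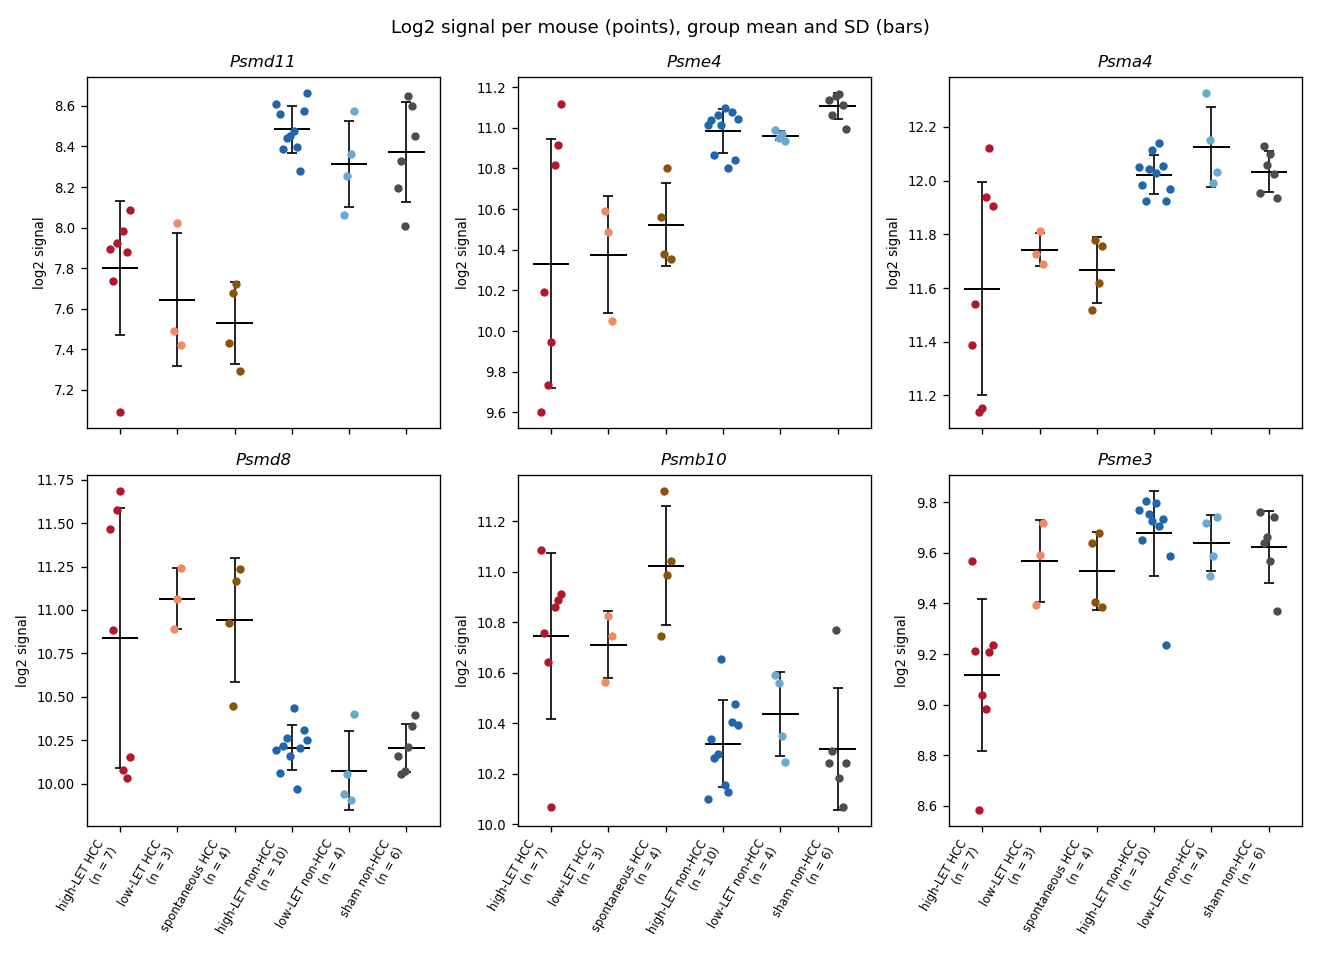
Log2 signal of 6 proteasome genes per mouse (points) in the 6 groups, with the group mean and SD as bars and an own vertical scale per gene. Psmd11, Psme4 and Psma4 are lower and Psmd8 and Psmb10 higher in most HCC, Psme3 is lower in high-LET HCC, and for Psmd8 the 7 high-LET HCC split into values of 10.88 to 11.69 and 10.03 to 10.15.

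The mean over the 33 genes above background on all arrays, relative to the sham mean, was −0.09 ± 0.07 (SD, n = 4) for spontaneous, −0.11 ± 0.12 (SD, n = 7) for high-LET and −0.11 ± 0.15 (SD, n = 3) for low-LET tumors. In non-HCC livers it was 0.03 ± 0.04 (SD, n = 10) after high-LET and 0.02 ± 0.03 (SD, n = 4) after low-LET radiation, and its SD in sham livers was 0.04 (n = 6). By class, the 4 alpha ring genes had means of −0.24 ± 0.08 (SD) in spontaneous, −0.23 ± 0.20 in high-LET and −0.30 ± 0.21 in low-LET HCC. The 4 activators had −0.11 ± 0.05, −0.28 ± 0.22 and −0.26 ± 0.27 in that order. In the same order the 8 base genes had −0.14 ± 0.07, −0.20 ± 0.14 and −0.11 ± 0.09 and the 7 beta ring genes −0.12 ± 0.09, −0.17 ± 0.24 and −0.15 ± 0.17. The 6 lid genes, which hold both Psmd8 and Psmd11, had −0.07 ± 0.11, −0.07 ± 0.19 and −0.04 ± 0.18. The mean over the 3 assembly chaperones stood above the sham mean in each of the 7 high-LET HCC, at 0.11 to 0.55, on average 0.34 ± 0.16 (SD). In spontaneous HCC it ran from −0.46 to 0.25. Psmd10 by itself lay above its sham mean in 6 of the 7 high-LET HCC. No test was made on these means over genes.

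**Figure D4:**
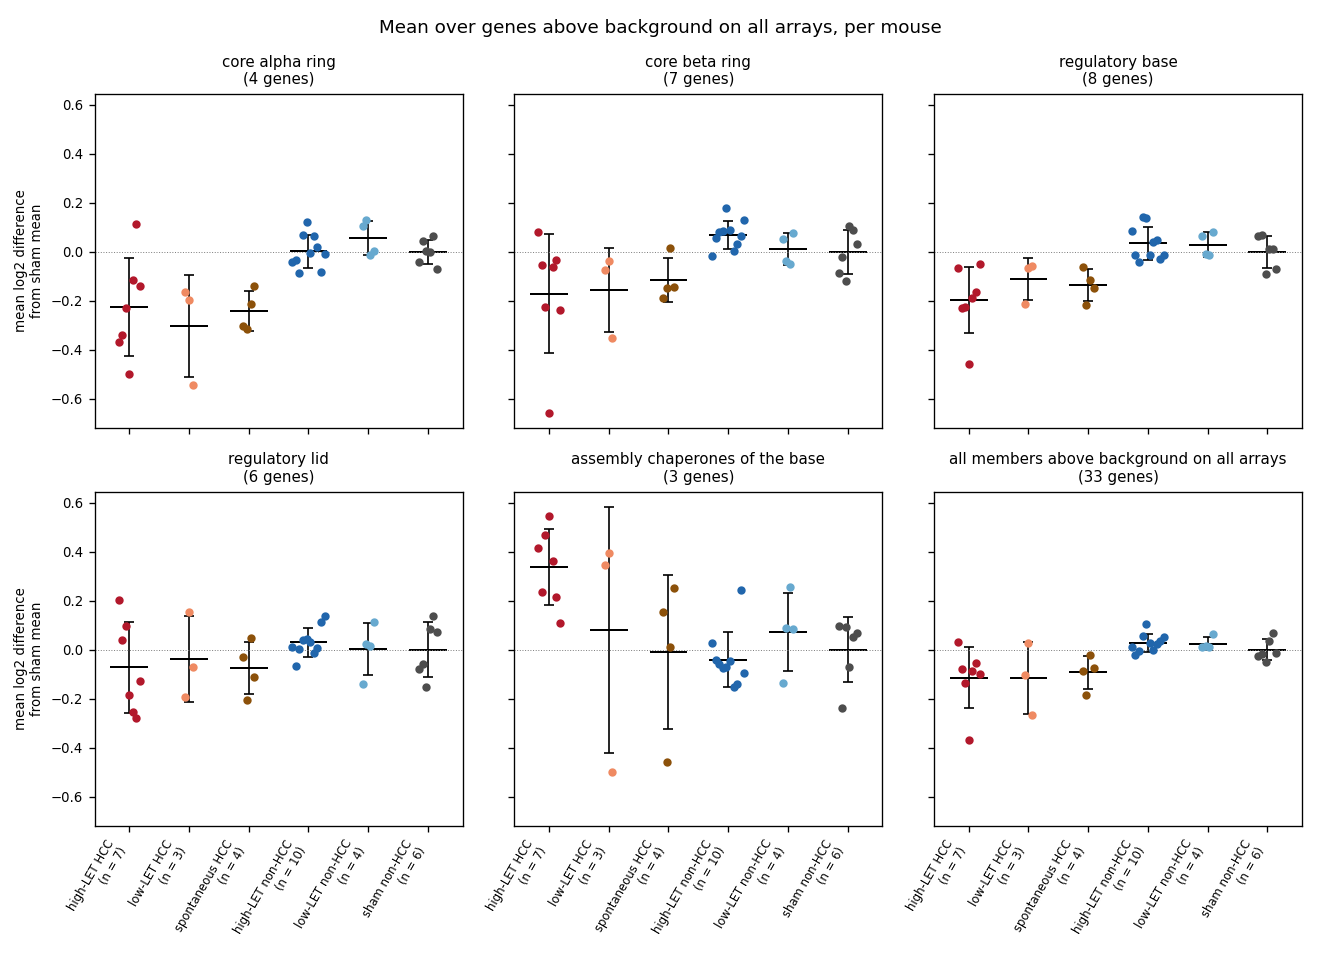
Mean log2 difference from the sham mean over the genes of each particle that lay above background on all arrays, per mouse (points), with group means and SD as bars on a shared vertical axis. The alpha ring and base lie below 0 in most HCC, the lid scatters around 0, and all 7 high-LET HCC lie above 0 for the assembly chaperones.

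Values were also compared within BeadChips. The median difference of the 33 genes between HCC and non-HCC livers was negative on each of the 6 BeadChips with both tissues, from −0.34 to −0.01. Psmd11, Psme4, Psma4 and Psmc1 were lower and Psmd8 and Psmb10 higher in HCC on all 6. Among genes called in single comparisons the difference of HCC and non-HCC livers ran from −0.90 to 0.11 for Psmb1, from −0.60 to 0.10 for Psmd14 and from −0.44 to 0.64 for Psmd5. Each group lay on 3 to 6 of the 8 BeadChips.

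No difference of proteasome transcripts was detected after irradiation without a tumor. In high-LET non-HCC against sham livers limma called 0 of the 41 genes and 0% of all probes, with a median log2 fold change of 0.01 over the genes and a range of −0.12 to 0.20. In low-LET non-HCC against sham livers it called 0 of 41 and 0% of all probes, with a median of 0.02 and a range of −0.14 to 0.19. At an unadjusted p under 0.05 there were 2 and 1 genes (4.88% and 2.44%), against 3.33% and 3.31% of all probes, and the ordinary linear model called 0 in both.

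Between kinds of tumor, 2 of the 41 genes were called by their brightest probes, both in high-LET against spontaneous HCC. Psmc1 was higher in high-LET HCC by 0.48 ± 0.13 (adjusted p = 0.0644), where 0.885% of all probes were called higher (1.66% of expressed probes). Psme3 was lower by 0.41 ± 0.12 (adjusted p = 0.0712), where 1.6% of all probes were called lower (2.86% of expressed probes). Neither passed at an adjusted p under 0.05, in a fit of these groups alone or with BeadChip as a fixed block. The Psmc1 call was lost without spontaneous HCC replicate 2 or 3 or high-LET HCC replicate 5 or 7, and the Psme3 call without spontaneous HCC replicate 1 or 3 or high-LET HCC replicate 3 or 5. The count was 0 without spontaneous HCC replicate 3 and 4 without spontaneous HCC replicate 4. A second, dimmer probe of Psmd11 was also called higher in high-LET HCC, by 0.40 ± 0.11 (adjusted p = 0.0608). Its brightest probe gave 0.27 ± 0.14 (adjusted p = 0.399).

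High-LET against low-LET HCC gave 0 of 41 genes, where 0.628% of all probes were called. At an unadjusted p under 0.05, 8 genes (19.5%) passed, against 10.6% of all probes, expressed or not. The count of genes called was 2 without high-LET HCC replicate 1 or low-LET HCC replicate 1 and 1 without low-LET HCC replicate 2. Low-LET against spontaneous HCC gave 0 of 41, where 0.00663% of all probes were called, and 3 genes (7.32%) had an unadjusted p under 0.05, against 5.11% of all probes. The ordinary linear model called 0 in both.

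The interaction asked whether the difference between tumor and liver depended on the radiation given, and was called at an adjusted p under 0.2. By their brightest probes 0 of 41 genes passed, where 0.694% of all probes did. The smallest p belonged to Psme3 (p = 0.00469 in limma, adjusted p = 0.277), Psmd2 (p = 0.00624, adjusted p = 0.311) and Psmd5 (p = 0.0138, adjusted p = 0.38). A second, dimmer probe of Psmd2 passed at an adjusted p of 0.157. Its log2 signal was 5.95 ± 0.06 (SD, n = 4) in spontaneous HCC, where it lay above background in 0 of 4 tumors, and 6.17 ± 0.05 (SD, n = 6) in sham livers. Without low-LET HCC replicate 1 the number of genes that passed was 5, and it was 2 without high-LET non-HCC replicate 9 and 1 without high-LET HCC replicate 1 or low-LET HCC replicate 2.

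Other genes of the pathway were described from lists in all HCC against all non-HCC livers, where 4.75% of all probes were called higher and 4.68% lower (8.47% and 8.79% of those above background on at least 17 arrays). Of 5 chaperones of core assembly, Psmg3 was lower by 0.60 ± 0.05 (adjusted p = 4.14e-10) and the other four were not called. Of 7 shuttles and unfoldase genes that bring ubiquitinated proteins to the proteasome, 3 were lower and 0 higher, with a list median of −0.36. These were Rad23b, lower by 0.59 ± 0.11, Nploc4, lower by 0.55 ± 0.08, and Ubqln1, lower by 0.49 ± 0.07. Of 3 regulators of proteasome genes, Nfe2l2, the factor NRF2 that binds antioxidant response elements, was higher by 0.58 ± 0.10 (adjusted p = 2.43e-05), while Nfe2l1 was not called. Of 6 induced subunits and peptide loading genes, Psmb8 (0.63 ± 0.23) and Tap2 (0.43 ± 0.13) were higher. Of 5 associated proteins, Ubr4 was lower by 0.44 ± 0.07.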

How the data were processed

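RNA of 14 HCC and 20 non-HCC livers was measured on Illumina BeadChips, 1 array per mouse. The authors deposited linear intensities summarized from bead signals, without background subtraction. The authors also deposited log2 values after background subtraction and quantile normalization, and these were used as an alternative. On every array the rank correlation of the authors' values with the intensities was at least 0.999968, and no pair of arrays was identical.

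Here background was removed by normexp (offset 50) and quantile normalization and log2 followed (limma 3.58.1, R 4.3.3). A probe was kept if 3 or more arrays placed it above the median of their dimmest 25%. The background limit of an array was set from the spread of signals below their mode. In limma, 6 group means were fitted, from which 11 comparisons and an F-test of interaction (radiation by HCC) were taken. P-values were adjusted over all 45219 probes. All HCC against all non-HCC livers weighted the 3 groups of each tissue equally. Within-array differences were tested by permutation of arrays. Figures were drawn with matplotlib 3.10.9. The scripts were tested on simulated data.

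Groups and doses came from the labels. The named genes were the catalytic subunits, Psmb10, the activators, Psmd2, every gene called in a comparison, and in each particle the genes with the smallest and largest p in all HCC against all non-HCC livers. Values in every group were given for the 6 genes with the smallest p there, the 3 with the smallest interaction p, Psmb10, Psme1 and Psme2, and Psmc1 was added after its values were seen. The members and lists were chosen with earlier results of these data known. A list of ubiquitin genes was not analysed here. Endothelial (2 higher, 0 lower of 5 in all HCC), stellate or fibroblast (2 higher, 2 lower of 6), bile duct (0 of 4) and hepatocyte markers (1 higher, 0 lower of 6) were also read. Alternatives were the authors' values, no background correction, median scaling, other filters, BeadChip as a fixed or random block, only the groups compared, an ordinary linear model, other thresholds, other rules for several probes, and each array left out in turn.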

Additional observations from a re-analysis of the deposited data

Results flagged for a closer look

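Among 110 sets of values of 4 to 10 mice, 13 held a highest or lowest mouse far from the others, where chance gives about 1 in 20. The sets share mice and genes, so 1 mouse can be flagged several times and the count cannot be set against that rate. High-LET HCC replicate 4 was lowest of its group for Psmd11, at a log2 signal of 7.09 with the next at 7.74, and for the mean over 33 proteasome genes, at −0.37 with the next at −0.14. High-LET HCC replicate 3 was lowest for Psmb8 minus Psmb5, at 0.39 above the sham mean with the next at 1.10. Spontaneous HCC replicate 3 was highest for the mean of the activators, at −0.028, and lowest for Psmb9 minus Psmb6, at −0.12.

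Among livers, sham replicate 3 was highest for Psmb10, at 10.77, so that its difference from the sham mean was 0.47 for the induced and thymic beta genes, which is Psmb10 alone, and 0.86 for Psmb8 minus Psmb5. High-LET non-HCC replicate 9 was lowest for Psme3, at 9.24, and highest for the mean of the assembly chaperones, at 0.24. High-LET non-HCC replicate 4 was lowest for Psme1, at 11.43, and replicate 2 for Psme2, at 7.92. Low-LET non-HCC replicate 4 was highest for the mean over 33 genes, at 0.064.

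By brightest probes, differences between kinds of tumor were seen in limma for Psmc1 and Psme3. Psmc1 was higher by 0.48 in high-LET than in spontaneous HCC, and Psme3 had a log2 difference of −0.41. The second probe of Psmd2 had an adjusted p of 0.157 for the interaction of radiation and HCC.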

How the results depend on the processing

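Over all alternatives no result reversed. Of 330 counts of genes called, 287 stayed within 1.5 times the reported count and 43 did not. Of 221 medians 220 moved by less than their spread. Of 1126 values of named genes 972 kept their call and 154 were no longer called. Of 111 differences of catalytic pairs 110 were unchanged. Most of these were compared by direction only, since no p was computed with arrays left out or within BeadChips.

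With arrays scaled to a common median, the genes called numbered 1 in high-LET HCC against sham livers, 0 in low-LET HCC, 1 in spontaneous HCC (median log2 fold change −0.16), 3 in high-LET HCC against high-LET non-HCC livers, 0 in low-LET HCC against low-LET non-HCC livers and 0 in high-LET against spontaneous HCC. In fits of the compared groups alone the numbers were 3 in high-LET and 3 in low-LET HCC against sham livers and 0 in high-LET against spontaneous HCC. With BeadChip as a fixed block they were 4 in spontaneous and 3 in low-LET HCC against sham livers, 1 in low-LET HCC against low-LET non-HCC livers and 0 in high-LET against spontaneous HCC. With the mean of a gene's probes they were 4 and 1 in high-LET and low-LET HCC against sham livers, and 6 and 0 against their own non-HCC livers, and the calls of Psmd11 and Psme4 in all HCC were lost. Without a fold threshold they were 14, 12, 22 and 19 in high-LET HCC and spontaneous HCC against sham livers, high-LET HCC against high-LET non-HCC livers and all HCC. The shares of all probes called in these other settings are not given here, so the counts cannot be set against them. Counting all probes gave 11 in spontaneous HCC, 10 in all HCC and 1 for the interaction. High-LET against spontaneous HCC gave 1 with the authors' values, 1 without background correction, 4 with a filter at the background limit and 0 at an adjusted p under 0.05. The Psmb9 minus Psmb6 difference was 0.33 with the authors' values and did not pass. The cause of these changes was not tested.

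Leaving out each array in turn gave 4 to 7 genes in high-LET, 1 to 6 in low-LET and 6 to 8 in spontaneous HCC against sham livers, 7 to 11 and 0 to 6 in high-LET and low-LET HCC against their own non-HCC livers, 5 to 9 in all HCC, 0 to 4 in high-LET against spontaneous HCC, 0 to 2 in high-LET against low-LET HCC and 0 to 5 for the interaction. The low-LET count of 1 came without low-LET HCC replicate 3. For the catalytic pairs, where leaving out arrays was chosen after seeing the data, the differences ran from 0.87 to 1.10 (Psmb8 minus Psmb5), 0.18 to 0.24 (Psmb9 minus Psmb6) and 0.76 to 0.84 (Psmb10 minus Psmb7). No paired analysis was possible because the replicate numbers were given in accession order and pair no mice.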
